A study of Arabidopsis thaliana with 24 samples.

Results

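The class III peroxidases are a large plant family of secreted haem enzymes, and 58 of its Arabidopsis loci were followed here across the shoot and the root of wild-type and hy5-215 seedlings at 22 °C and 28 °C. The members are a given list of loci that was matched to the gene identifiers of the count tables, and all 58 were among the 33977 identifiers counted. These enzymes spend hydrogen peroxide to oxidise phenolic compounds in the cell wall, which joins monolignols into lignin and ties extensins together, and in another cycle they can release reactive oxygen species that loosen the wall. HY5 is a bZIP transcription factor that promotes light-grown development in the shoot and also acts in the root, and it is known to bind DNA elements with an ACGT core. Family members differ widely in where they act: the peroxidase PER64 serves the lignin of the Casparian strip in the root endodermis, and loci named ROOT HAIR SPECIFIC (RHS18 and RHS19) belong to root hairs.

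The study asked how HY5 shapes gene expression in each organ when the ambient temperature rises. Per the sample labels, the seedlings were 5 days old and light-grown, and spent a last 4 h at either 28 °C or the growth temperature of 22 °C with the continuous white light left on. The 8 groups combine organ (shoot, which the labels call hypocotyl, or root), genotype (Col-0 wild type or hy5-215, a loss-of-function allele in Col-0) and temperature, with 3 biological replicates each and 24 libraries of 3′ tags in all. The labels and the study's methods differ on the age and the light level, the series description gives a longer treatment, and the genotype field contradicts the sample titles in part, so the titles set the groups here. The mutant is a single line with 1 allele, and each library holds a whole organ of pooled tissue.

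The libraries held 1212281 to 3781032 counts, and the shallowest was replicate 3 of the Col-0 root at 22 °C. HY5 itself, measured by a 3′ tag that the hy5-215 lesion does not remove, was at 52.2 ± 9.79 CPM (counts per 1000000, SD, n = 3) in the Col-0 root and 13.6 ± 3.56 in the hy5-215 root at 22 °C, while in the shoot the levels were 30.1 ± 4.39 and 21.5 ± 3.33 and the difference missed the threshold (edgeR adjusted p = 0.0513), so this tag is a check of the labels in the root alone. The 5 photosynthetic markers summed to 23552 to 49038 CPM in shoot libraries and to 257 to 615 CPM in root libraries, and the 5 root markers to 3657 to 6110 CPM in root and 1091 to 2062 CPM in shoot. The Col-0 root at 22 °C stood apart from the other root groups: its photosynthetic markers summed to 545 to 615 CPM against 257 to 476 CPM, and its root markers other than the abundant PYK10 to 130 to 176 CPM against 214 to 258 CPM. With PYK10 the order turned, and all 5 root markers summed to 5421 to 6110 CPM there against 3657 to 4649 CPM in the other root groups. Fewer cells of a type and less RNA per cell cannot be told apart in these libraries.

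HY5-type elements were looked for in the DNA before the members' starts, because the genotype comparisons below turn on HY5. The palindrome ACGT lay in the window from 250 bases before to 50 bases after the annotated start in 35 of 58 members (60.3%), and in 49.9% of 27443 protein-coding genes. The G-box CACGTG, which contains ACGT and reads the same on both strands, was in 0 of 58 members and 7.68% of all genes. The letters GACGTG, searched on both strands and likewise holding ACGT, were in 7 of 58 members (12.1%) and in 6.98% of all. Of 15 members that differed by genotype in the root at either temperature, 8 held ACGT (53.3%), as did 17 of the 31 tested members that did not (54.8%). In the shoot 6 of the 9 members that differed by genotype held it (66.7%), as did 15 of 29 tested members that did not (51.7%). The following 30-base windows, 5′ to 3′ on the gene's strand of the RefSeq TAIR10.1 assembly, show that element in capitals for 7 of the members described below. A match is a description of the letters alone.

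AT1G49570 (chr1:18346715-18346744, plus strand, 230 bases before the start): gaatgtttgtatgACGTttacaaggaaaag

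AT4G26010 (chr4:13200306-13200335, plus strand, 95 bases before the start): cctatcgacatagACGTggtatcctttcga

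RHS19 (chr5:26894685-26894714, plus strand, 80 bases before the start): gccatcaccaagaACGTggctccaagttat

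AT4G33420 (chr4:16084536-16084565, plus strand, 164 bases before the start): tatgtggaacactACGTgccacttttcatg

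AT5G64120 (chr5:25661050-25661079, minus strand, 59 bases before the start): tttgttgactcacACGTcattctttgacta

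AT3G32980 (chr3:13530261-13530290, minus strand, 179 bases before the start): atgtagacagcatACGTcctataaaccaag

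AT2G38390 (chr2:16079481-16079510, plus strand, 185 bases before the start): aagaatatatagcACGTcgaaattagttta

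Among the other members described below, AT2G41480, AT5G66390, AT2G38380, AT3G49960, AT2G37130, PRXCB and Prx37 had no ACGT in that window. Neither list is complete: AT3G01190, for instance, held ACGT 245 bases before the start and AT5G39580 81 bases before it.

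Most of the family was read in both organs, and more of it in the root. In the 12 root libraries 53 members reached more than 3 counts in at least 1 library, 3 stayed at 1 to 3 counts and 2 (AT3G03670 and AT5G58400) were at 0 throughout. In the 12 shoot libraries 50 members passed 3 counts, 4 stayed at 1 to 3 counts and 4 (AT1G05240, AT3G03670, AT4G17690 and AT5G19880) were at 0 throughout. AT3G03670 had no count in any of the 24 libraries. The AT1G05250 transcript is identical over all its 1492 bases to a stretch of the AT1G05240 transcript. Tags from that stretch cannot be assigned to either gene, and how such tags were counted is not given in the sources used here. The low counts of these genes, with the 0 of AT1G05240 in the shoot, therefore do not measure their expression.

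**Figure D1:**
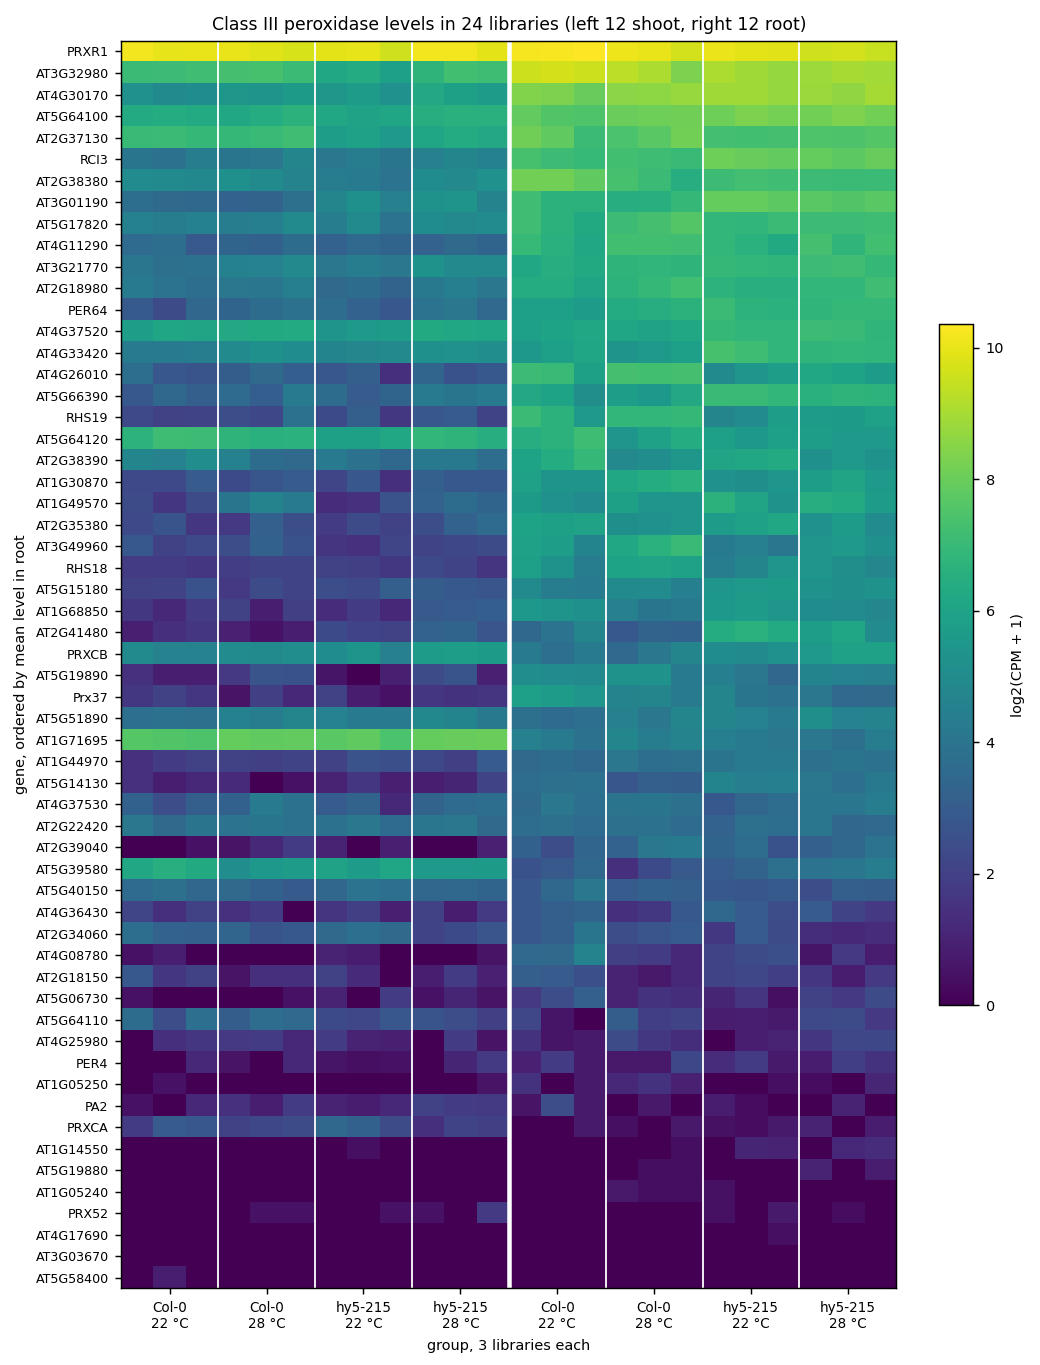
Levels of the 58 class III peroxidase loci as log2(CPM + 1) in each of the 24 libraries; rows are genes ordered by their mean in root, columns are the 3 libraries of each group. PRXR1 is the brightest row in both organs, AT1G71695 and AT5G39580 are brighter in shoot, and 32 rows were higher in the Col-0 root than in the Col-0 shoot at 22 °C by the test described in the text.

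A few members held most of the family's tags. Because each transcript gives tags from its 3′ end alone, CPM do not grow with transcript length and can be set side by side between genes. Summed over the family, the shoot of Col-0 at 22 °C was at 2231 ± 75.4 CPM and the root at 4814 ± 303 CPM (SD, n = 3). In that shoot PRXR1 was the highest at 1068 ± 84.7 CPM, 47.9% of the family total, followed by AT1G71695 (185 ± 10.3), AT3G32980 (139 ± 4.98), AT5G64120 (127 ± 20.04, annotated as PRX71) and AT2G37130 (126 ± 6.08). The level of AT5G64120 lay within its spread of both AT3G32980 and AT2G37130, whose own libraries did not overlap. In the root PRXR1 was again the highest at 1239 ± 69.1 CPM and 25.7% of the total, followed by AT3G32980 (784 ± 36.4), AT4G30170 (301 ± 48.2), AT2G38380 (267 ± 31.9) and AT2G37130 (212 ± 72.6). The last 3 of these overlapped in their spread.

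The root carried higher levels of most members. Of 44 members tested between the organs of Col-0 at 22 °C, 32 were higher in the root and 2 were higher in the shoot by edgeR, where a call needed 2-fold and an adjusted p not above 0.05, against 17.4% and 24.1% of all 16324 genes tested. The members' median log2 fold change was 2.57, and that of all genes 0.01. RHS19 was at 134, 98.7 and 47.7 CPM in the 3 root libraries and at 3.45 ± 0.48 CPM in the shoot, or 4.82 ± 0.34 on the log2 scale (with its SE, adjusted p = 2.57e-12). AT5G19890 (4.73 ± 0.36, adjusted p = 1.12e-11) and Prx37 (4.37 ± 0.28, adjusted p = 3.71e-13) followed by the same test. RHS18 was higher in root by a log2 fold change of 4.05, PER64 by 3.04 and RCI3, a locus first named for induction by cold, by 3.16. Of these genes, RHS19 and PER64 each overlap an antisense gene at the 3′ end.

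Past both limits, 2 members were higher in the shoot, and DESeq2 and the fit with no filter on low counts each gave 4. AT5G39580 was at 70.6, 92.4 and 76.8 CPM in the shoot and at 5.05, 6.42 and 10.1 CPM in the root, a log2 fold change of −3.48 ± 0.22 (edgeR adjusted p = 4.70e-13). AT1G71695 was at 196, 184 and 176 CPM in the shoot and at 17.9 ± 4.12 CPM in the root (−3.28 ± 0.16, adjusted p = 9.08e-16). In both genes the libraries of the organs were far from overlapping. PRXR1 differed by a log2 fold change of 0.26 ± 0.09, below the 2-fold limit. AT4G08780 and AT2G39040 had 3 and 1 counts in all in the 3 shoot libraries against 80 and 41 in the root, which gives ratios of 32.7 (exact 95% interval 10.8 to 162, counting error only) and 50.2 (8.52 to 2031).

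**Figure D2:**
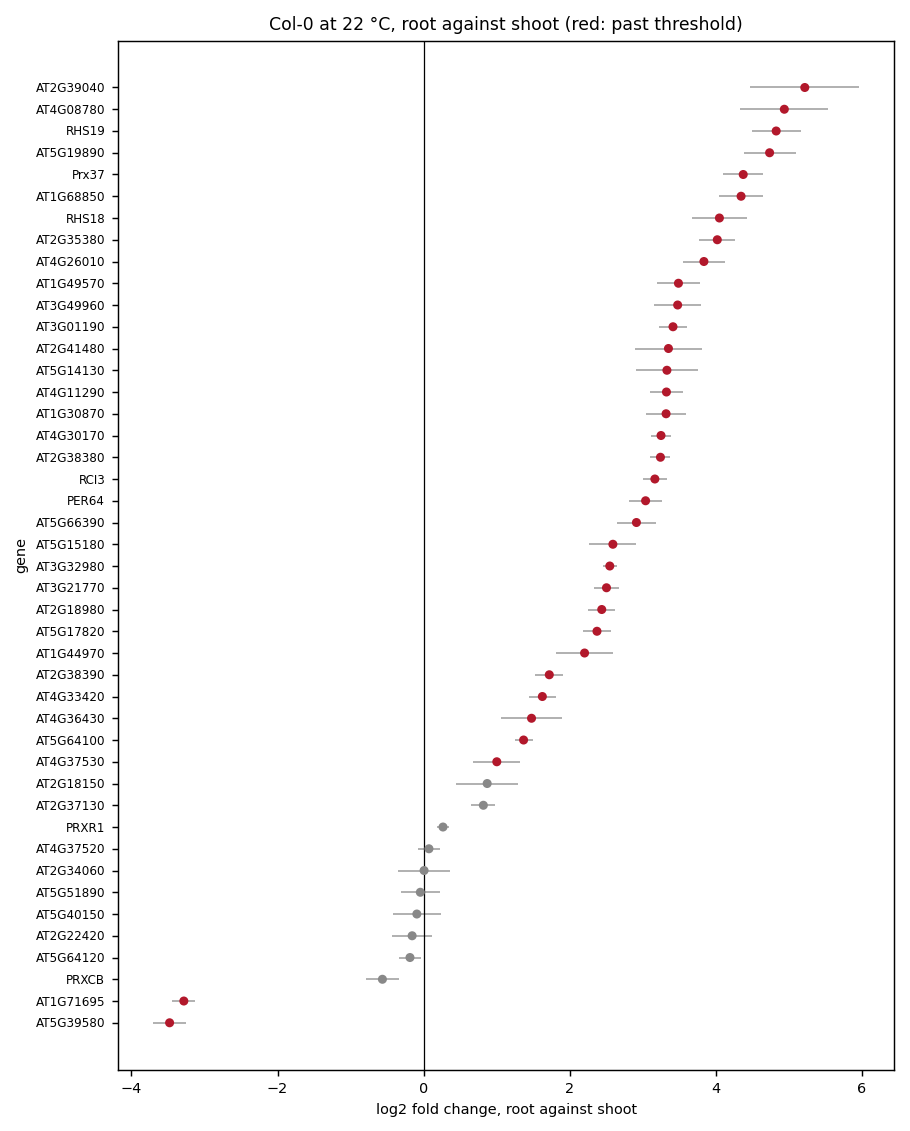
The log2 fold change of 44 members in the Col-0 root against the Col-0 shoot at 22 °C (x axis) by gene (y axis), n = 3 libraries per organ; bars are approximate SE, red points passed the adjusted p and the 2-fold limit. The points of 32 members lie to the right in red, and AT5G39580 and AT1G71695 lie alone in red at the left.

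At 28 °C the shoot of Col-0 changed 1 member past both limits. Of 33 members tested, 1 was higher and 0 lower, against 2.15% higher and 3.15% lower among 15697 genes; 13 members (39.4%) had an unadjusted p below 0.05, as did 35.6% of all genes tested, and DESeq2 also called 1. That gene was AT1G49570, at 4.38, 2.13 and 4.27 CPM at 22 °C and at 15.4, 23.9 and 19.0 CPM at 28 °C, a log2 fold change of 2.46 ± 0.31 (edgeR adjusted p = 1.06e-06). The hy5-215 shoot showed it too, from 1.52, 1.78 and 5.23 CPM to 8.5, 11.8 and 9.06 CPM (1.83 ± 0.40, adjusted p = 0.00224). In neither genotype did the temperatures overlap, and the rise held in every alternative fit. Below the 2-fold limit, adjusted p passed for AT4G33420 (0.85), AT3G21770 (0.82) and AT5G51890 (0.80) among the rises and for AT5G39580 (−0.85) and AT2G38390 (−0.82) among the falls, on the log2 scale. AT4G33420 and AT5G51890 each overlap an antisense gene at the 3′ end.

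In the hy5-215 shoot 6 members moved past both limits. Of 36 tested, 5 rose and 1 fell, against 1.77% and 1.82% of 15680 genes, and 32 of the 36 had a positive log2 fold change with a median of 0.51 (all genes 0.01). The count filter in part sets these tallies. AT1G68850 (3, 7 and 3 counts, then 15, 19 and 16) and AT2G41480 (8, 9 and 7, then 20, 25 and 12) entered through their 28 °C libraries. AT2G35380 and AT1G49570 did so for the most part. PRXCA, at 20, 23 and 10 counts and then 4, 9 and 6, was not tested. The summed family level was 1867 ± 208 CPM at 22 °C and 2404 ± 131 CPM at 28 °C in hy5-215, and 2231 ± 75.4 and 2199 ± 43.2 CPM in Col-0. Beside AT1G49570, AT1G68850 rose from 1.52, 2.49 and 1.31 CPM to 6.38, 7.01 and 7.63 CPM (1.95 ± 0.42, edgeR adjusted p = 0.00195). AT2G34060 was the member that fell, from 11.1, 12.8 and 10.9 CPM to 3.4, 4.06 and 5.72 CPM (−1.37 ± 0.31, adjusted p = 0.00344). For each of them the libraries of the temperatures were separate. The remaining rises, AT2G35380 (1.31), AT2G41480 (1.26, annotated as PRX25) and AT5G66390 (1.01, annotated as PRX72), were lost in DESeq2 (adjusted p = 0.106 and 0.125 for the former pair, and a log2 fold change of 0.999 for AT5G66390) and without 3 to 4 of the 6 libraries taken singly.

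These rising members are genes of the root, and other genes of the root moved likewise. The 545 genes that are not members and were at least 8-fold higher in the Col-0 root than in the Col-0 shoot gave 149 testable genes in the hy5-215 shoot, of which 130 had a positive log2 fold change at 28 °C with a median of 0.50 (genes of low level enter only where some libraries lift them past the count filter). In the Col-0 shoot 117 of 134 were positive with a median of 0.52, where the median of all tested members was 0.17. Members at least 8-fold higher in the root had medians of 0.28 in the Col-0 shoot (9 of 11 positive) and 0.70 in the hy5-215 shoot (13 of 13). The Col-0 shoot libraries at 22 °C both chose these genes and were the baseline of the Col-0 change, which by itself favours positive values. The Col-0 values are therefore no independent evidence of a rise. Root markers other than PYK10 summed to 17.9 to 27.3 CPM at 22 °C and 24.7 to 34.3 CPM at 28 °C in the hy5-215 shoot, and all 5 root markers to 1091 to 1392 and 1991 to 2062 CPM. Their part in the members' rise was not tested.

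The shoot response of 2 abundant members differed between the genotypes. Of 39 members, 2 passed the interaction test (adjusted p at most 0.05, no fold limit), and so did 1.03% of 16429 genes. AT5G64120 was at 104, 139 and 138 CPM in Col-0 at 22 °C and 105, 95.6 and 97.8 CPM at 28 °C, but at 59.1, 58.7 and 73.2 CPM in hy5-215 at 22 °C and 115, 105 and 85.8 CPM at 28 °C. On the log2 scale the Col-0 libraries changed by −0.32 ± 0.12 and the hy5-215 libraries by 0.73 ± 0.13, a difference of 1.04 ± 0.18 (edgeR adjusted p = 0.00278). AT3G32980 held 135, 138 and 144 CPM in Col-0 at 22 °C and 159, 161 and 134 CPM at 28 °C, against 70.2, 81.2 and 56.7 CPM and then 105, 150 and 141 CPM in hy5-215. The difference of its responses was 0.80 ± 0.18 (adjusted p = 0.0159), and the call was lost without replicate 3 of either genotype at 22 °C or replicate 2 of hy5-215 at 28 °C (adjusted p = 0.0567 to 0.0929). In both genes the hy5-215 libraries at 22 °C lay below the other 9.

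**Figure D3:**
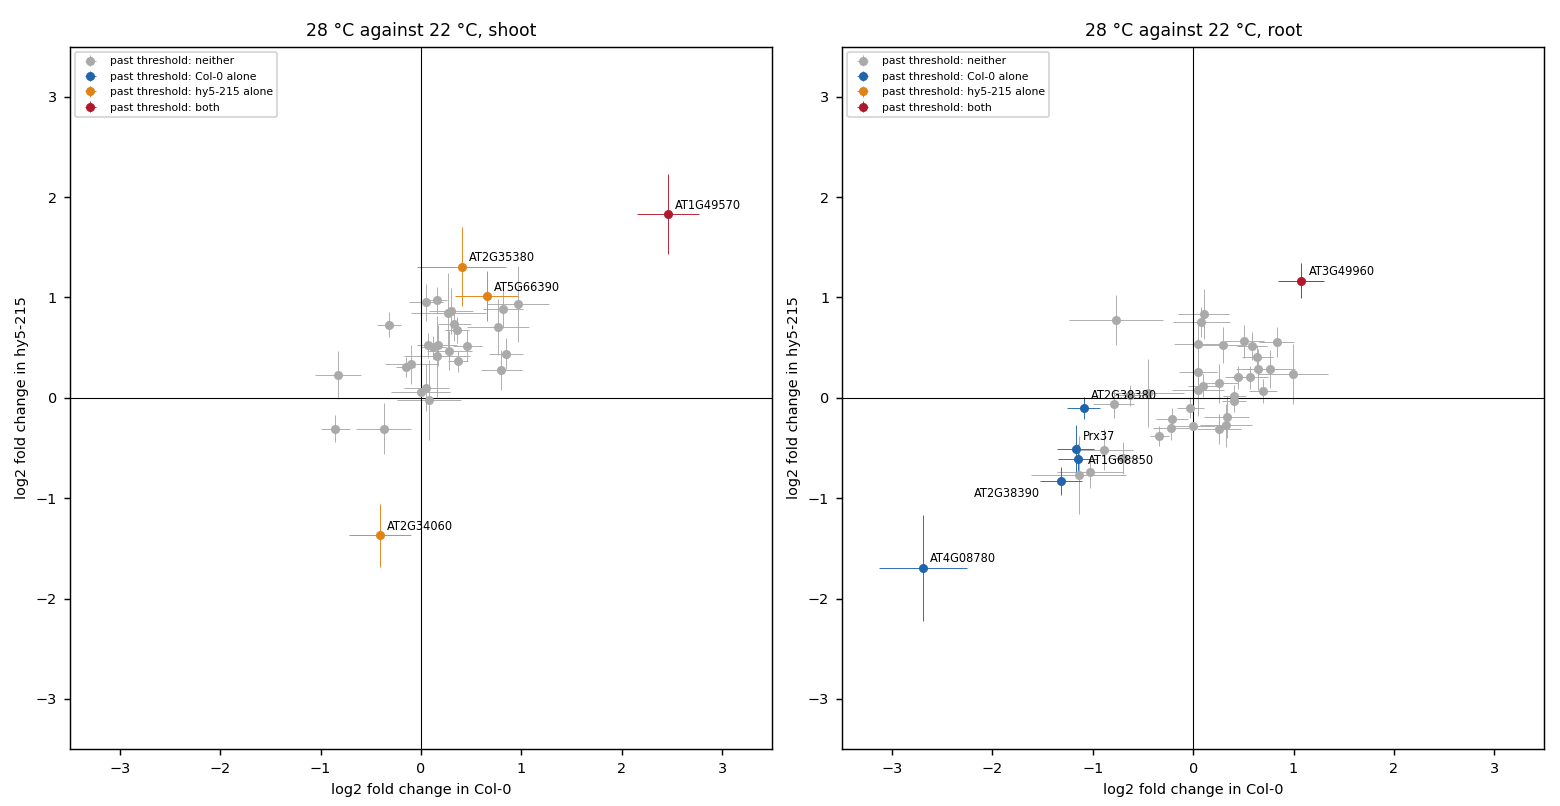
The log2 fold change at 28 °C against 22 °C in Col-0 (x axis) and in hy5-215 (y axis) for members tested in both genotypes, shoot at left and root at right, n = 3 libraries per group; bars are approximate SE and colours mark where both limits were passed. AT1G49570 is in the upper right of the shoot panel (2.46 and 1.83) and AT3G49960 in the upper right of the root panel (1.08 and 1.17).

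In the Col-0 root 7 members moved past both limits at 28 °C. Of 44 members tested, 6 fell and 1 rose, against 1.49% and 0.946% of 15743 genes, and without replicate 1 at 22 °C 7 fell and 4 rose. By adjusted p alone 10 members fell and 8 rose, against 996 of the 15743 genes in either direction. Of the 44 members, 24 had a positive log2 fold change, with a median of 0.05. The neighbouring pair AT2G38380 and AT2G38390 (88.7% identical transcripts) both fell: AT2G38380 from 288, 282 and 230 CPM to 160, 132 and 86.1 CPM, and AT2G38390 from 63.3, 83.9 and 118 CPM to 28.2, 32.5 and 44.3 CPM. The log2 fold changes were −1.09 ± 0.16 (edgeR adjusted p = 0.000333) and −1.32 ± 0.21 (adjusted p = 0.000457). No 22 °C library overlapped a 28 °C library for either gene, though without replicate 3 at 28 °C the fall of AT2G38380 was −0.88 and under 2-fold.

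Another neighbouring pair, Prx37 and AT4G08780, fell too. Prx37 went from 56.0, 51.3 and 41.0 CPM to 23.6, 25.0 and 18.0 CPM (−1.17 ± 0.19, edgeR adjusted p = 0.000559), and AT4G08780 from 10.6, 10.9 and 23.5 CPM to 2.95, 2.47 and 1.24 CPM (−2.69 ± 0.44, adjusted p = 0.00063). Their transcript ends are 94.4% to 94.8% identical where they align, and AT4G08780 also overlaps an antisense gene there, so the split of tags between them is uncertain. AT1G68850 (−1.15 ± 0.20, adjusted p = 0.000999) and AT2G18150 (−2.74 ± 0.52, adjusted p = 0.00286, at a mean of 7.83 counts) completed the falls. PRXR1 and AT3G32980, the most abundant members, passed the adjusted p at −0.34 and −0.63 without reaching 2-fold.

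The single rise was AT3G49960, whose closest relative in the family is RHS19. It was at 59.2, 53.3 and 24.2 CPM at 22 °C and 73.0, 97.7 and 126 CPM at 28 °C (1.08 ± 0.23, edgeR adjusted p = 0.00683), and in the hy5-215 root at 18.0, 21.5 and 15.9 CPM and then 42.2, 46.9 and 35.7 CPM (1.17 ± 0.18, adjusted p = 3.13e-05). The temperatures were separate in both genotypes. In Col-0 the call was lost in DESeq2 (adjusted p = 0.14), and without replicate 3 at 22 °C (0.81) or replicate 3 at 28 °C (0.86) it stayed under 2-fold. Replicate 3 at 22 °C is the shallowest library and was the lowest of its group for RHS18, RHS19, AT4G26010 and AT3G49960.

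AT3G49960 was also the only call among 42 members tested in the hy5-215 root: 1 rose and 0 fell, against 1.11% and 0.626% of 16445 genes, with 22 members (52.4%) and 19.4% of all genes tested at an unadjusted p below 0.05. Whether the root response itself differs by genotype was tested in 47 members, and 1 passed (1.41% of 16982 genes did). AT2G38380, which fell in Col-0, was at 136, 151 and 144 CPM in hy5-215 at 22 °C and at 136, 134 and 132 CPM at 28 °C, and the responses differed by 1.01 ± 0.20 on the log2 scale (edgeR adjusted p = 0.00481). Its hy5-215 libraries at both temperatures lay near the Col-0 libraries at 28 °C. For the other falling genes no difference between genotypes passed that test. The adjusted p was 0.371 for AT2G18150, 0.714 for AT4G08780, 0.429 for Prx37, 0.366 for AT1G68850 and 0.491 for AT2G38390. Their estimates were all positive, from 0.51 (AT2G38390) to 1.82 (AT2G18150), a smaller fall in hy5-215. These genes were picked for their fall in Col-0, which by itself favours that sign. AT2G38390 was at −0.83 ± 0.14 in hy5-215.

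Organs of Col-0 differed in their response for 4 of 45 members, against 2.78% of 17916 genes, each more negative in the root. AT1G49570 rose in the shoot and was at 0.26 ± 0.19 in the root, a difference of −2.22 ± 0.38 (edgeR adjusted p = 0.000527). AT2G38380 differed by −1.15 ± 0.26 (adjusted p = 0.00966), AT4G33420 by −1.07 ± 0.25 (adjusted p = 0.0119) and AT3G32980 by −0.80 ± 0.22 (adjusted p = 0.0354). All but AT1G49570 rested on single libraries: adjusted p rose to between 0.051 and 0.155 without 1 library, for AT2G38380 and AT4G33420 always a shoot library, and AT3G32980 was also lost in DESeq2 (adjusted p = 0.0534). The Col-0 root at 22 °C, with its higher photosynthetic markers, enters each of these values.

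In the root 15 members differed between hy5-215 and Col-0 at one temperature or both. At 22 °C, 5 of 44 members were higher and 6 lower in hy5-215, against 2.89% and 2.89% of 15628 genes. At 28 °C, 6 of 44 were higher and 4 lower, against 3.15% and 1.70% of 16514 genes. The 2 temperatures rest on different libraries, and 6 members passed in both: AT2G41480, AT4G33420 and AT3G01190 were higher, and RHS19, AT4G26010 and AT3G49960 were lower. That is 6 of 11 calls at 22 °C and 6 of 10 at 28 °C. The share of all genes that repeated is not given here, so this rate cannot be read as particular to the family.

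AT2G41480 (PRX25) was the gene with the largest increase. It was at 10.1, 14.3 and 25.6 CPM in the Col-0 root and 85.0, 96.7 and 79.6 CPM in the hy5-215 root at 22 °C (2.44 ± 0.22, edgeR adjusted p = 1.11e-08). At 28 °C it was at 6.22, 8.96 and 8.36 CPM and 54.2, 68.4 and 31.1 CPM (2.73 ± 0.24, adjusted p = 6.50e-09). Each hy5-215 root library exceeded every Col-0 root library. The shoot showed the same direction at a far lower level: at 28 °C the Col-0 shoot had 1 to 2 counts per library and 5 in all and the hy5-215 shoot 57, a ratio of 11.1 (exact 95% interval 4.48 to 35.4, counting error only). AT2G41480 passed the count filter there through the hy5-215 libraries alone (20, 25 and 12 counts). It was not tested in the shoot at 22 °C, so the shoot is no independent evidence of the increase.

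AT4G33420 and AT3G01190 were also higher at both temperatures. AT4G33420 was at 45.4, 56.3 and 67.2 CPM in Col-0 and 163, 139 and 112 CPM in hy5-215 at 22 °C (1.29 ± 0.16, edgeR adjusted p = 3.05e-06), and higher by 1.23 ± 0.13 at 28 °C. It overlaps an antisense gene at its 3′ end, and the strand setting of the counting is not given in the sources used here. AT3G01190 was higher by 1.002 ± 0.14 at 22 °C and 1.02 ± 0.12 at 28 °C, at the edge of the 2-fold limit, and fell just under it in several alternative fits. It was also the sole member called higher in hy5-215 in both organs at both temperatures. AT5G66390 (PRX72) was at 74.8, 63.7 and 33.6 CPM in Col-0 and 129, 127 and 115 CPM in hy5-215 at 22 °C (1.07 ± 0.18, adjusted p = 0.000164), or 0.82 without replicate 3 of Col-0. AT5G15180 was higher by 1.02 at 22 °C and stayed under 2-fold without any 1 of 4 libraries.

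At 28 °C alone, PRXCB (PRX34, a source of the apoplastic oxidative burst) was called higher at 10.8, 16.7 and 25.1 CPM in Col-0 and 47.7, 59.2 and 59.5 CPM in hy5-215 (1.66 ± 0.20, edgeR adjusted p = 9.13e-07). At 22 °C its difference was 0.97 ± 0.22, and whether the temperatures differ was covered by the interaction test, which PRXCB did not pass. AT5G39580, the shoot-preferring member, was at 1.64, 4.02 and 6.5 CPM in the Col-0 root and 14.6, 15.6 and 20.1 CPM in the hy5-215 root (2.02 ± 0.32, adjusted p = 5.70e-05). AT5G14130 was higher by 1.14 ± 0.25, and both it and PER64 overlap an antisense gene at the 3′ end. At 22 °C PER64, the peroxidase of the Casparian strip, reached an adjusted p of 3.80e-05 with a log2 fold change of 0.997, just short of the limit. Its levels there were 56.9, 56.3 and 51.1 CPM in Col-0 and 132, 102 and 97.9 CPM in hy5-215. At 28 °C the gap was smaller, with 82.9, 85.6 and 98.8 CPM against 109, 118 and 120 CPM. The interaction did not pass (−0.61 ± 0.19, edgeR adjusted p = 0.124). The Col-0 root at 22 °C is the group with low root markers other than PYK10. RCI3 also passed the adjusted p at 22 °C, at 0.82.

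**Figure D4:**
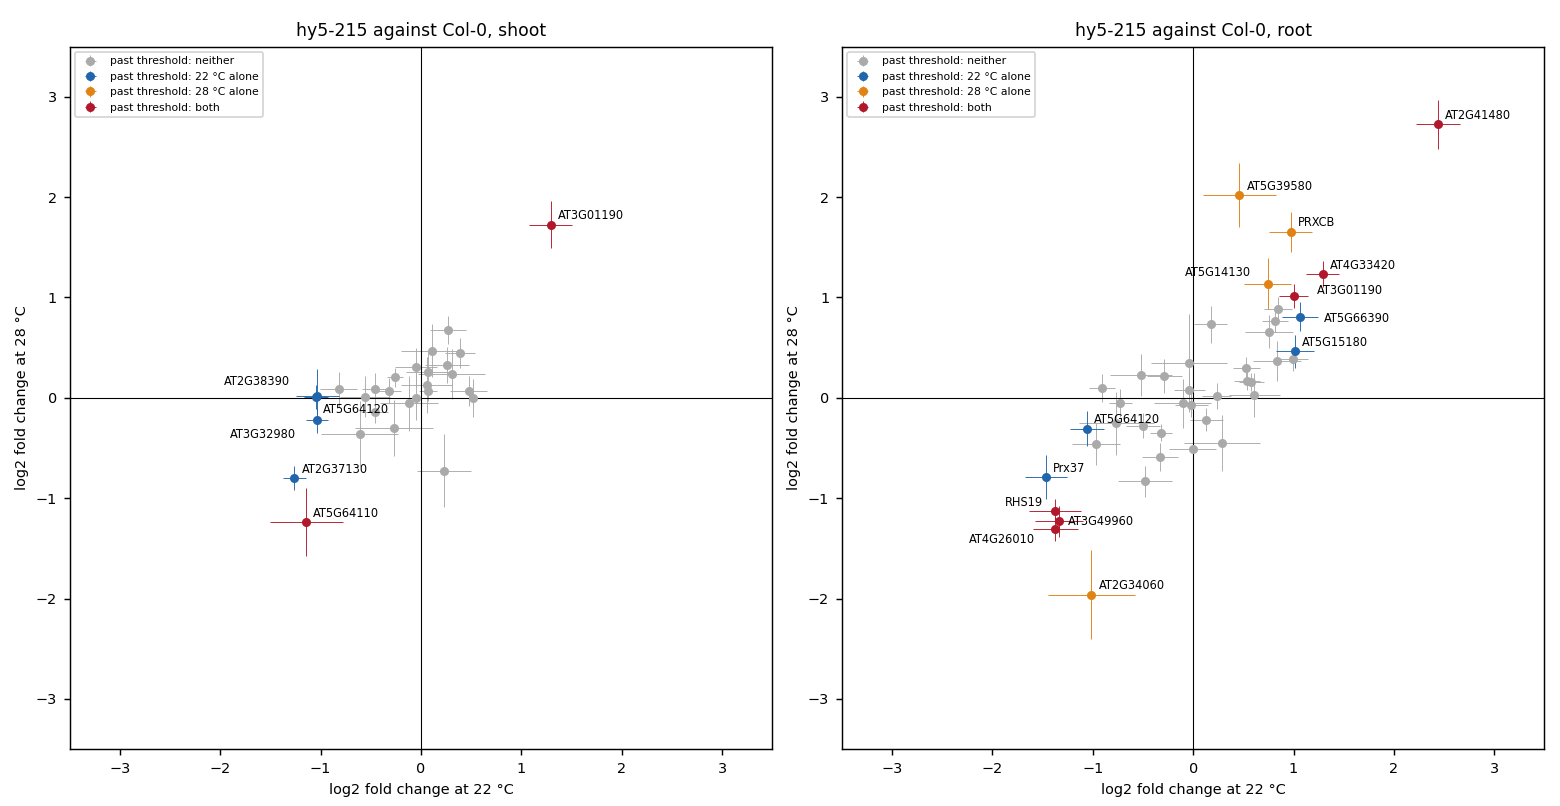
The log2 fold change of hy5-215 against Col-0 at 22 °C (x axis) and at 28 °C (y axis) for members tested at both temperatures, shoot at left and root at right, n = 3 libraries per group; bars are approximate SE and colours mark where both limits were passed. In the root panel AT2G41480 sits at the upper right (2.44 and 2.73) and RHS19, AT4G26010 and AT3G49960 together at the lower left (−1.37 to −1.13).

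RHS19, annotated as root hair specific, was among the lower members. RHS19 was at 134, 98.7 and 47.7 CPM in Col-0 and 25.4, 30.9 and 54.7 CPM in hy5-215 at 22 °C, where replicate 3 of both genotypes overlapped and DESeq2 did not call it (adjusted p = 0.119). At 28 °C it was at 116, 116 and 118 CPM against 51.6, 49.2 and 59.5 CPM, well separated (−1.13 ± 0.12, edgeR adjusted p = 1.11e-07). RHS18 was lower by 0.83 ± 0.15 at 28 °C on the log2 scale (adjusted p = 0.000311), under the 2-fold limit. AT4G26010 was at 137, 127 and 58.5 CPM against 29.8, 42.8 and 54.0 CPM at 22 °C (−1.37 ± 0.23, adjusted p = 0.000104) and lower by 1.31 ± 0.12 at 28 °C. AT3G49960 was lower by 1.33 ± 0.24 (adjusted p = 0.000285) and 1.23 ± 0.16 (adjusted p = 2.67e-06). RHS19 and AT4G26010 each overlap an antisense gene at the 3′ end. The hair genes among the root markers used above did not pass both limits. EXPA7, an expansin of root hairs, was at −0.24 and −0.58, and COBL9, needed for hair growth, at 0.05 and −0.34 at 22 °C and 28 °C. They do not stand for all genes of root hairs, and several extensins were lower in the hy5-215 root, as given below.

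The other lower members in the root passed at one temperature. Prx37 (−1.47 ± 0.21, edgeR adjusted p = 1.66e-05), AT4G08780 (−1.82 ± 0.38, adjusted p = 0.00145) and AT5G64120 (−1.06 ± 0.17, adjusted p = 7.35e-05) passed at 22 °C, and AT2G34060 (−1.96 ± 0.45, adjusted p = 0.00302, at a mean of 11.7 counts) at 28 °C. Prx37 and AT4G08780 are members that fell with temperature in Col-0, and the comparisons share the 3 Col-0 root libraries at 22 °C, which held the highest Prx37 levels of all root libraries. Without replicate 3 of those libraries AT5G64120 was at −0.85.

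**Figure D5:**
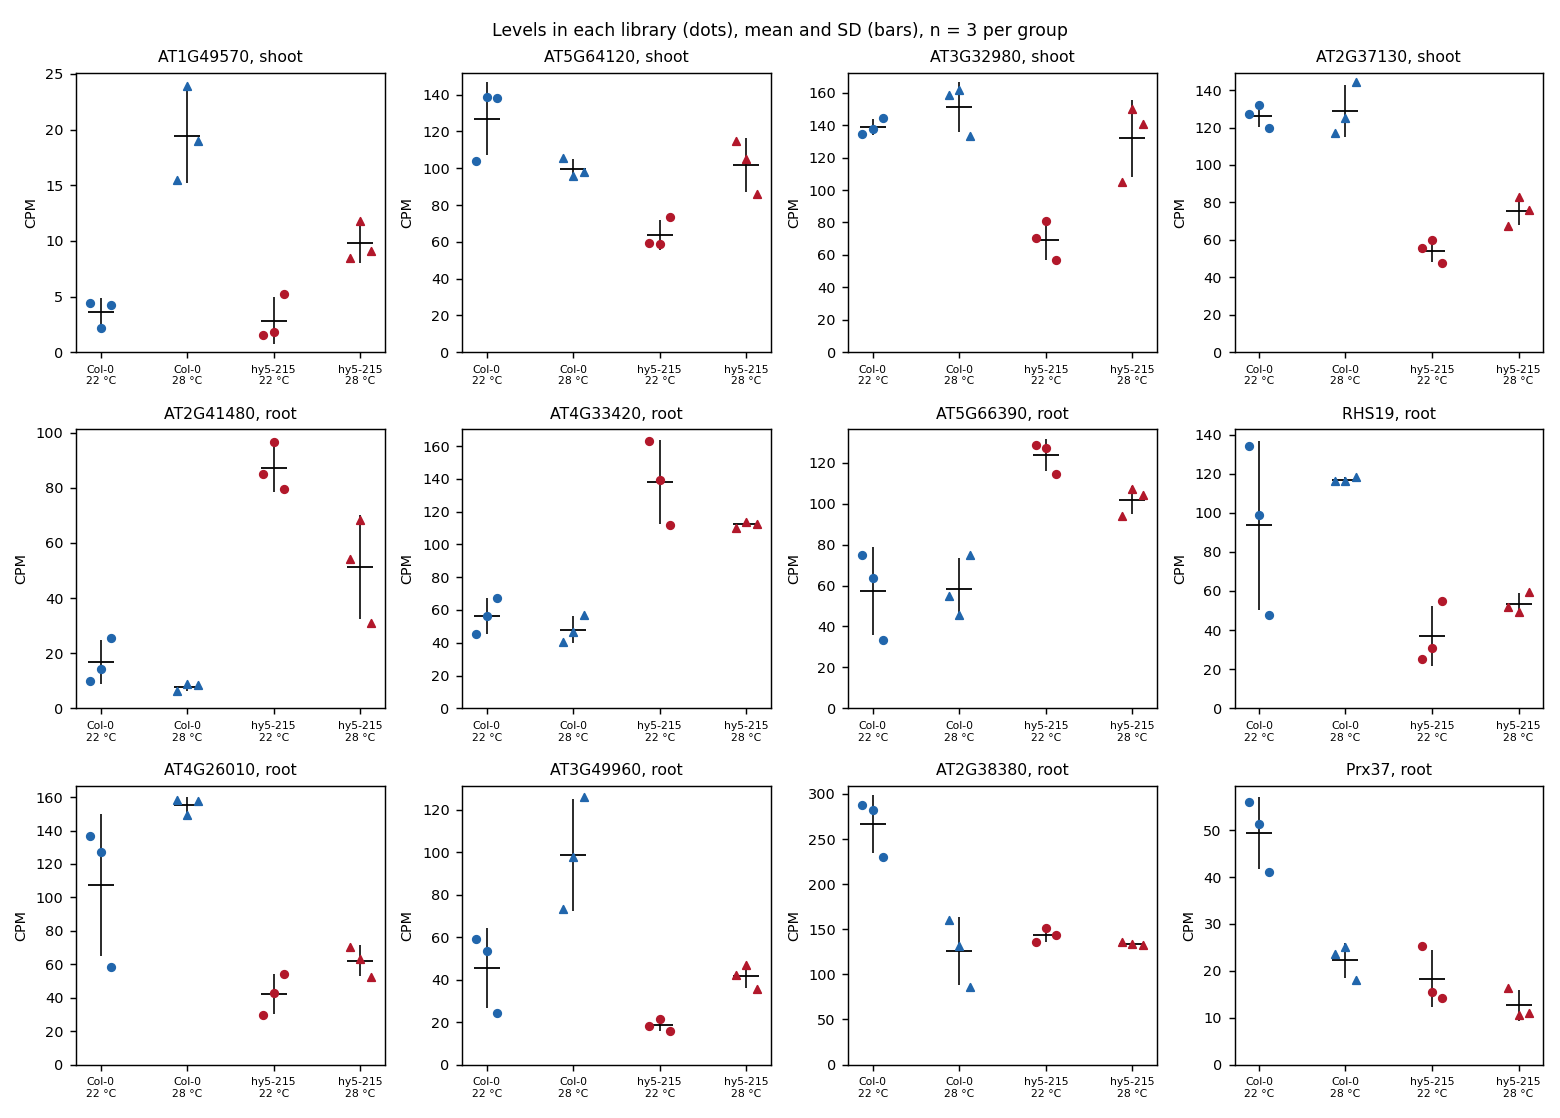
CPM (y axis, from 0) in each library of 12 members whose level changed, with 4 shoot panels in the top row and 8 root panels in the others; blue is Col-0, red is hy5-215, circles are 22 °C, triangles are 28 °C, and black bars are the mean and SD of n = 3. AT2G41480 shows all 6 hy5-215 root libraries above all 6 of Col-0, and AT2G38380 shows the 3 Col-0 libraries at 22 °C (288, 282 and 230 CPM) above the other 9.

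In the hy5-215 shoot several abundant members were lower at 22 °C. Of 29 members tested, 5 were lower and 1 higher, against 1.04% and 0.695% of 15548 genes. AT2G37130 was at 127, 132 and 120 CPM in Col-0 and 55.6, 59.8 and 47.5 CPM in hy5-215 (−1.26 ± 0.11, edgeR adjusted p = 2.95e-12). AT5G64120 (−1.05 ± 0.12, adjusted p = 3.69e-09), AT3G32980 (−1.04 ± 0.11, adjusted p = 5.54e-10) and AT2G38390 (−1.03 ± 0.21, adjusted p = 0.000441) were lower with no overlap of libraries, and for each the value came under 2-fold (−0.86 to −0.98) without 1 or another library. AT5G64110 (−1.14 ± 0.36, adjusted p = 0.0342) overlapped between genotypes and was lost in DESeq2 (adjusted p = 0.252).

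AT3G01190 alone was higher, at 12.3, 11.1 and 10.2 CPM in Col-0 and 26.3, 36.0 and 21.8 CPM in hy5-215 (1.29 ± 0.22, edgeR adjusted p = 2.20e-05). At 28 °C, 3 of 37 members were higher and 2 lower, against 1.13% and 0.681% of 15702 genes. AT3G01190 was again higher (1.72 ± 0.23, adjusted p = 8.33e-05), with AT2G41480 as given above. AT1G68850 (1.55 ± 0.43), AT5G64110 (−1.24 ± 0.34) and AT1G49570 (−1.01 ± 0.24) also passed, but DESeq2 called none of these 3 (adjusted p = 0.0742 to 0.2). AT2G37130 was at −0.80 ± 0.12 (adjusted p = 0.000285), under the 2-fold limit. The calls shared between the temperatures were AT3G01190 and AT5G64110, 2 of 6 at 22 °C and 2 of 5 at 28 °C, again without the share among all genes.

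Genes of neighbouring steps of wall chemistry were read from lists beside the family. The Casparian strip genes, which place lignin in the endodermal wall, had 6 of 7 higher in the hy5-215 root at 22 °C with a median log2 fold change of 1.13, among them MYB36, the factor that switches them on (1.24), and CASP5 (1.18), and 0 of 7 past both limits at 28 °C with a median of 0.44. CASP1 is also one of the root markers that were low in the Col-0 root at 22 °C. Extensins, the wall proteins that peroxidases cross-link, had 4 of 9 lower at 22 °C (AT5G06630 at −1.60 and EXT10 at −1.23) and 3 of 9 at 28 °C (EXT6 at −1.14 and EXT10 at −1.12). The medians of all genes were near 0 in both comparisons (−0.01 and −0.003). Of all genes tested, 2.89% were called higher and 2.89% lower at 22 °C, and 3.15% and 1.70% at 28 °C.

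Laccases, which also oxidise monolignols, had 2 of 11 higher in the hy5-215 root at 22 °C (LAC11 at 1.60 and LAC7 at 1.37) and 2 of 12 at 28 °C (LAC16 at 1.31 and LAC5 at 1.05). Monolignol enzymes had 2 of 15 higher at each temperature, with FAH1, the ferulate hydroxylase of syringyl lignin, in both (1.63 and 1.46). In the shoot at 28 °C, 3 of 15 monolignol enzymes fell in Col-0, led by PAL1, which opens the phenylpropanoid pathway (−1.35), and CAD4 (−1.08), and 1 of 15 in hy5-215. The RBOH NADPH oxidases, which feed the production of hydrogen peroxide, had 1 of 7 higher in the hy5-215 root at 22 °C and 1 of 8 at 28 °C, RBOHB at 1.02. Of all genes tested, 2.89% and 3.15% were called higher in the hy5-215 root at 22 °C and 28 °C. At 28 °C in the shoot 3.15% fell in Col-0 and 1.82% in hy5-215. A single call in so short a list is not a result about the list. Another 15 class III peroxidase loci outside the 58 were sparse: 4 and 5 of them were tested in the root genotype comparisons and none passed.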

How the data were processed

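3′Tag-Seq counts per gene were deposited by the authors, who checked reads with FastQC, used HISAT2 for alignment and HTSeq for counting on TAIR10; versions and strand setting are not given in the sources used here. The counts are raw, and all 24 columns were matched to samples by label. Libraries within groups differed by more than sampling noise (chi-square per degree of freedom 1.45 to 4.25 over 24 pairs). Each comparison was fitted to its own libraries in edgeR 4.0.16 (R 4.3.3; TMM, filterByExpr with a minimum count of 10, quasi-likelihood F-test), adjusted by Benjamini-Hochberg over all genes tested. Calls needed an adjusted p of at most 0.05 and 2-fold, as in the study; interactions needed the adjusted p alone. SEs are approximate, |log2 fold change| over the root of F. CPM used TMM over all 24 libraries; TMM factors were 0.743 to 0.866 in shoot and 1.18 to 1.28 in root. Precision is limited by 1212281 to 3781032 counts per library, and a count of 3 was taken as the floor. The scripts were tested on simulated data.

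Members, gene lists and tests were chosen with earlier results of these data known. The rule for named genes took every called member where at most 6 were called, otherwise the 3 per direction with the largest change among those averaging 20 counts or more without overlap, the 4 interactions with the smallest adjusted p, and the 5 highest members of each organ; others are named because the family is described gene by gene, and were chosen after their values were seen. Partner genes were named at most 2 per list and comparison. The 545 root-preferring genes were chosen after seeing the data. Promoters, gene positions and transcript identities (BLASTN 2.17.0) come from RefSeq TAIR10.1. The main fits treat samples as unpaired: same-numbered deviations correlated at −0.0815 to 0.18, and in no comparison were all above 0.1. Such weak correlations cannot exclude a pairing. Between genotypes in the shoot at 28 °C they were 0.157, −0.00657 and 0.18 for replicates 1, 2 and 3. DESeq2 1.42.0, other filters, scaling by library size alone, blocking on the replicate number, 1 joint fit per organ, no fold limit and leaving out each library were tried.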

Additional observations from a re-analysis of the deposited data

Results flagged for a closer look

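The temperature response differed between groups by a test of the difference itself for 7 values. Between genotypes, in log2 units of hy5-215 minus Col-0, the response of AT5G64120 in the shoot differed by 1.04, that of AT3G32980 in the shoot by 0.80 and that of AT2G38380 in the root by 1.01. Between organs of Col-0, root minus shoot, AT1G49570 differed by −2.22, AT2G38380 by −1.15, AT4G33420 by −1.07 and AT3G32980 by −0.80.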

How the results depend on the processing

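The number of members called depended on the settings as follows. Without the fold limit it was 11 of 33 and 18 of 36 in the shoot temperature comparisons of Col-0 and hy5-215. All genes gave 3920 of 15697 and 2644 of 15680 there. In the root temperature comparisons it was 18 of 44 and 12 of 42 (all genes 996 of 15743 and 995 of 16445). For the shoot genotype comparison at 22 °C it was 10 of 29 (all genes 1454 of 15548). The root genotype comparisons at 22 °C and 28 °C gave 24 and 20 of 44 (all genes 1831 of 15628 and 2035 of 16514). Without a filter on low counts the number of members called was 3 for temperature in the Col-0 shoot, 5 for temperature in the hy5-215 root and 4 for the root interaction. DESeq2 called 3 for temperature in the hy5-215 shoot and 2 for genotype in the shoot at 28 °C. The joint fit gave 2 for temperature in the Col-0 shoot, and library size alone gave 4 for the shoot interaction. With the replicate block the counts were 2 for temperature in the hy5-215 root and 3 for the root interaction. Whether replicate numbers pair the samples is not known.

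Leaving out 1 library gave 1 to 4 (temperature, Col-0 shoot), 5 to 7 (temperature, hy5-215 shoot), 6 to 11 (temperature, Col-0 root), 1 to 4 (temperature, hy5-215 root), 3 to 5 and 2 to 5 (genotype in the shoot at 22 °C and 28 °C), 10 to 14 and 9 to 11 (genotype in the root), 1 to 5 and 1 to 3 (interaction in shoot and root), 34 to 38 (organ) and 2 to 4 (organ by temperature). The 11 came without replicate 1 of the Col-0 root at 22 °C. For single members named by rule, 533 alternative values stayed on the same side of the limits, 61 no longer passed and 0 changed sign. Members below about 10 counts per library are limited by depth; the other causes of these shifts were not tested.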
